A study of Homo sapiens with 6 samples.

Results

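The genes described here encode potassium channels and their accessory subunits in NCI-H69 cells, an established line from a human small cell lung cancer with neuroendocrine features. Members were the genes whose symbol marks a channel family (KCN with a letter from A to V and digits, KCNMA, KCNMB or KCNIP), without antisense or pseudogene names, at a mean of at least 0.3 counts per 1000000 counts (CPM) over 6 libraries. Of 92 such symbols among 60671 genes counted, 64 met that level. The treated cells received GNF5 for 48 h, given in the sample labels as 20 µM, although the treatment text writes the same figure in millimolar, and the control cells received the vehicle DMSO. Each group had 3 RNA sequencing libraries. All cells were of the one line and are labelled WT, so no donor or genotype differs between groups. GNF5 inhibits ABL kinases allosterically, through their myristoyl-binding site rather than the ATP site, and the series asks what loss of ABL activity does to transcription and replication in this cancer.

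Potassium channels are membrane pores that let potassium leave or enter the cell down its gradient, and by doing so they set the resting voltage and end each electrical spike. Voltage-gated families (KCNA to KCND, KCNQ, KCNH) open when the membrane depolarises, KCNM and KCNN channels open with intracellular calcium and KCNT channels with sodium, KCNJ channels rectify inward, and KCNK channels leak at rest. Neuroendocrine cells, from which small cell lung cancer takes its features, are electrically excitable and release hormone when calcium enters, so these channels bear on secretion.

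Total counts ran from 46148701 to 58771023 in the GNF5 libraries and from 56467189 to 60697602 in the DMSO libraries. In these libraries 3 counts equal 0.0494 to 0.065 CPM, and intervals or limits of that kind cover counting error only. The labels do not say whether replicates came from separate cultures, so the spread behind each p-value is that between these 6 samples and may be technical. The 10 neuroendocrine markers all passed the filter on low counts, 4 of them higher, 3 lower and 3 not called, with a summed level of 4324 to 4437 CPM with GNF5 and 3875 to 3966 CPM with DMSO, CHGA among them, and their part in the results below was not tested. Markers of leukocytes summed to 4.54 to 5.40 CPM with GNF5 and 5.03 to 5.40 CPM with DMSO, with 4 of 12 at 0 (CD3D, CD3E, MS4A1 and NKG7), and erythroid markers to at most 0.238 CPM with GNF5 and 0.372 CPM with DMSO, with 6 of 8 at 0. Lung epithelium markers summed to 6.74 to 8.53 CPM with GNF5 and 14.7 to 16.1 CPM with DMSO, with SFTPB at 0, 6 of 8 tested markers lower and 1 higher, and their part in the results below was not tested. Fibroblast markers summed to 446.9 to 476.1 CPM with GNF5 and 444.6 to 468.6 CPM with DMSO, mostly POSTN, which rose, and COL1A2, which fell, with COL3A1 at 0. Of 7 fibroblast markers tested, 2 rose and 4 fell, of 3 leukocyte markers tested, 1 rose and 1 fell, and the 1 erythroid marker tested was not called.

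Potassium channel genes changed in both directions with GNF5. Of the 64, 24 were higher and 18 lower by edgeR's quasi-likelihood test (adjusted p under 0.05 over all genes), and 22 were not called. Over all 20734 genes tested, 61.6% were called, 31% higher and 30.7% lower, so the channel genes' 65.6% lies near that background. Their median log2 fold change was 0.07 and their median size of change 0.38, against 0.01 and 0.34 for all genes tested. At least a 2-fold change was called for 10 members, 6 higher and 4 lower, or 15.6%, where 11.6% of all tested genes passed that limit, 4.95% higher and 6.69% lower. Of these members, KCNE2 and KCNJ9 met the member level only through the group where they were higher. The 3 GNF5 values lay wholly above or below the 3 DMSO values for 43 of 64 members (67.2%), against 65.9% of all tested genes. Changes below are log2 fold changes of GNF5 over DMSO with their standard error (SE), and "rose" or "fell" is written only of genes that passed the test. In RNA from a whole culture, fewer cells that make a transcript and less of it per cell cannot be told apart.

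**Figure D1:**
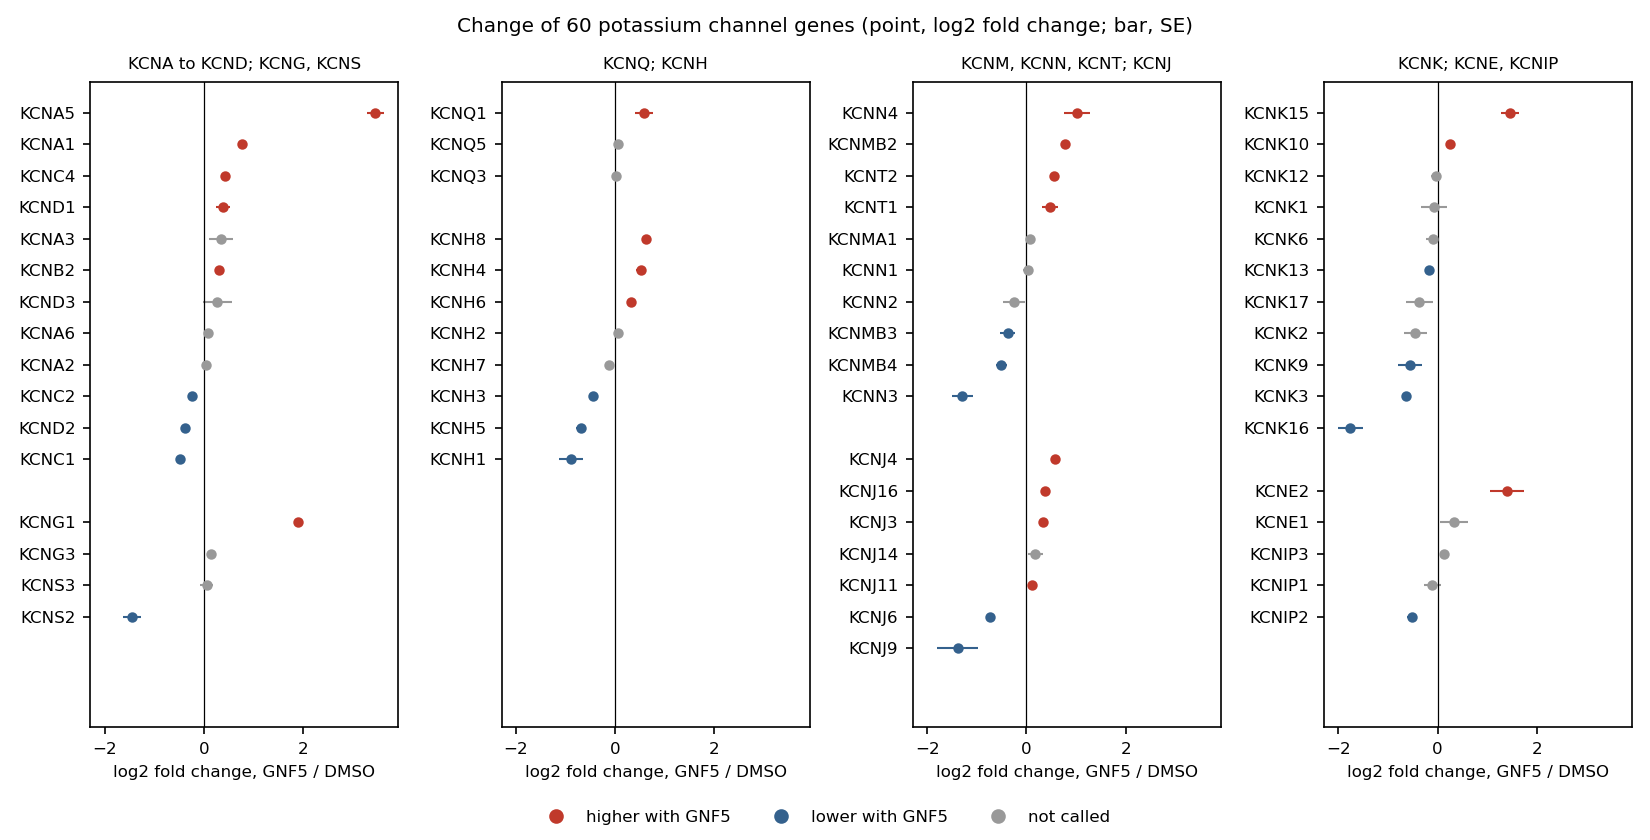
Log2 fold change, GNF5 over DMSO, of 60 of the 64 potassium channel genes, grouped by family (points) with the SE (bars) and coloured by the edgeR call. Red points to the right of 0 mark genes that were higher (21 of those drawn) and blue points to the left genes that were lower (17 of those drawn), and KCNA5 lies farthest right at 3.46.

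Potassium channel transcripts were unevenly spread over the genes. Genes were compared per kilobase of exon, with all annotated exons of a gene merged. That length can exceed any 1 transcript, as for KCNMA1 (39437 bases) and KCNC4 (26071 bases), so such genes may rank too low. How this bears on the ranks, shares and sums below was not tested. On this scale KCNA1 led in all 6 libraries. Its level was 59.9, 58.8 and 58.3 CPM per kilobase with GNF5, against 34.9, 35.3 and 34.3 with DMSO. The genes next in mean level were KCNH3, KCNH2, KCNB2 and KCNJ11. KCNH3, an ELK-type voltage-gated channel known from forebrain neurons, had 19.0, 22.3 and 21.3 CPM per kilobase with GNF5, against 29.0, 27.4 and 29.2 with DMSO. KCNH2, whose product carries the rapid delayed rectifier current of the heart, had 16.7, 16.4 and 17.01 CPM per kilobase with GNF5, against 15.98, 16.1 and 16.5 with DMSO. KCNH2 lay below KCNA1 and KCNH3 in every library. KCNB2, a delayed rectifier, had 16.3, 16.7 and 16.8 CPM per kilobase with GNF5, against 13.3, 13.6 and 13.5 with DMSO. KCNJ11, the pore of the ATP-sensitive channel, had 13.8, 13.9 and 14.5 CPM per kilobase with GNF5, against 13.1, 12.7 and 13.2 with DMSO. KCNB2 and KCNH2 overlapped in the GNF5 libraries, while KCNH2 was higher in all DMSO libraries. KCNJ4 ranked 5th with GNF5 and 8th with DMSO, and KCNK3 ranked 7th with GNF5 and 4th with DMSO. The 5 genes of highest mean level made up 48.4% of the summed level of the 64, and the 10 highest 69.02%.

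**Figure D2:**
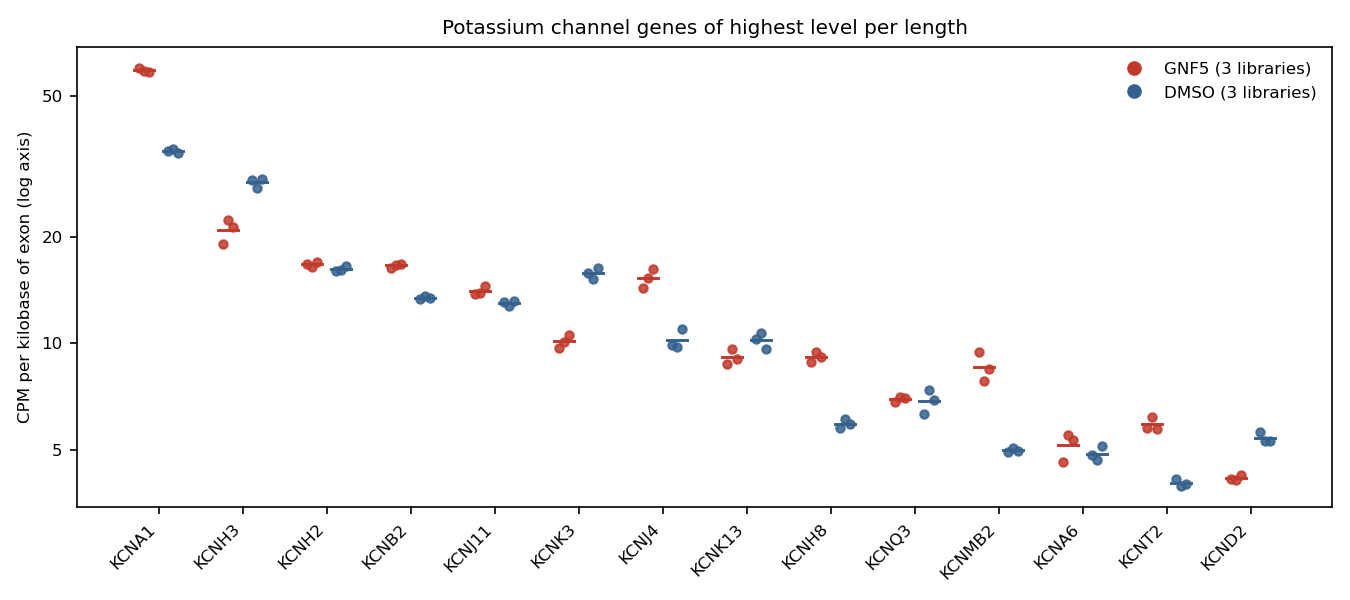
Level per library, in CPM per kilobase of exon on a log axis, of the 14 potassium channel genes of highest mean level, with 3 GNF5 points left of 3 DMSO points and a line at each mean. KCNA1 stands above all others in both groups, and KCNA1, KCNB2, KCNJ4 and KCNH8 are higher and KCNH3 and KCNK3 lower with GNF5.

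The summed level of all 64 genes per kilobase was 258 ± 3.20 with GNF5 and 224 ± 2.23 with DMSO (SD, n = 3 each). KCNA1 alone took 22.9 ± 0.598% of the summed level with GNF5 and 15.5 ± 0.307% with DMSO. The 14 members of KCNA to KCND summed to 95.3 ± 0.130 with GNF5 and 67.6 ± 0.767 with DMSO, and KCNA1 itself to 59.0 ± 0.807 with GNF5 and 34.8 ± 0.458 with DMSO. Of the 14, 6 rose, 4 fell and 4 were not called. The 11 leak channel genes of the KCNK family summed to 23.5 ± 0.839 with GNF5 and 30.2 ± 0.247 with DMSO. Of these, KCNK3 alone had 10.1 with GNF5 and 15.8 with DMSO, and 2 of the 11 rose, 4 fell and 5 were not called. The 8 KCNH genes summed to 57.5 ± 1.87 with GNF5 and 60.3 ± 0.802 with DMSO. Sums of the 7 KCNJ genes were 36.1 ± 1.05 with GNF5 and 29.6 ± 0.673 with DMSO. KCNJ4 alone had 15.3 with GNF5 and 10.2 with DMSO, and 4 of the 7 rose, 2 fell and 1 was not called. In the KCNM, KCNN and KCNT families together the 10 members summed to 19.8 ± 0.665 with GNF5 and 14.6 ± 0.342 with DMSO. Their highest were KCNMB2, at 8.59 with GNF5 and 4.99 with DMSO, and KCNT2, at 5.91 with GNF5 and 4.04 with DMSO. Of the 10, 4 rose, 3 fell and 3 were not called, so these sums are not shifts of whole families.

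**Figure D3:**
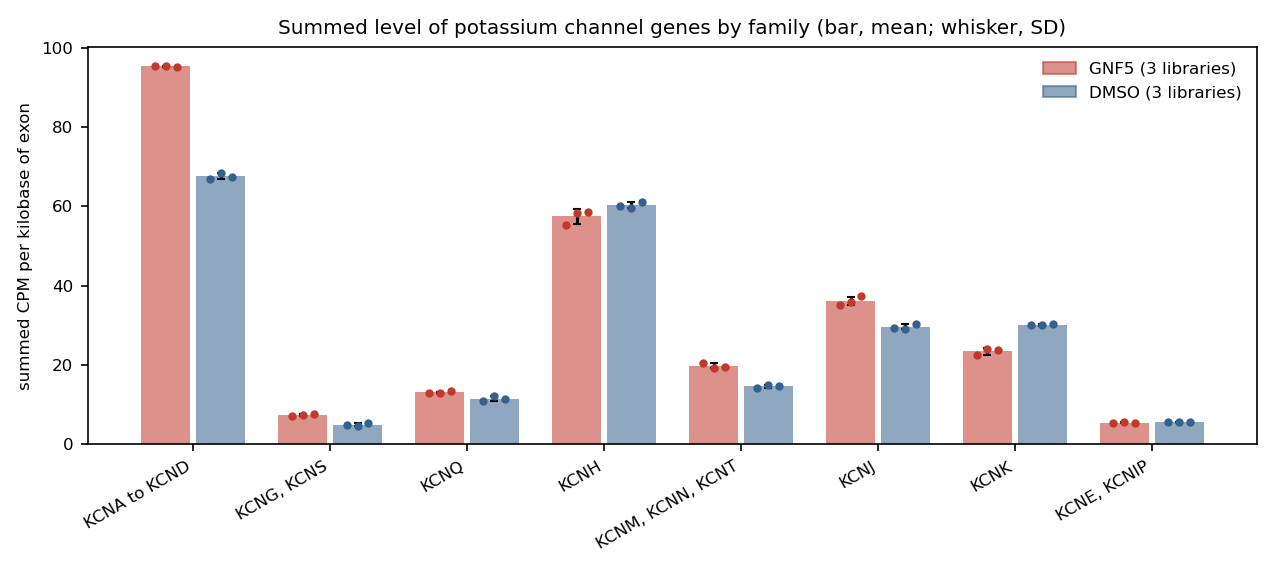
Summed level of potassium channel genes by family, in CPM per kilobase of exon, as mean (bar), SD (whisker) and single libraries (points), GNF5 left of DMSO. The KCNK and KCNH sums are lower with GNF5, the KCNE and KCNIP sum overlaps between groups, and all other sums are higher. Apart from KCNE and KCNIP, no family sum overlaps between the 3 libraries of each group. Of all single genes tested, 65.9% did not overlap.

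Among the Shaker-type KCNA genes, KCNA5 and KCNA1 rose, while KCNA2, KCNA3 and KCNA6 were not called. KCNA5 (ENSG00000130037, chromosome 12, 5043879 to 5046788, GRCh38), the pore of the ultra-rapid potassium current of the atrium, had 7.70, 6.01 and 6.64 CPM in the GNF5 libraries, against 0.354, 0.843 and 0.642 CPM in the DMSO libraries. That is 452, 279 and 348 counts in the GNF5 libraries, against 20, 51 and 37 counts in the DMSO libraries. All 3 GNF5 libraries lay far above every DMSO library, and the change was the largest of any of the 64, 3.46 ± 0.18 (adjusted p = 1.38e-15), or 10.98-fold. KCNA1 (ENSG00000111262, chromosome 12, 4909905 to 4918256), a dendrotoxin-sensitive channel of axons, had 478, 469.9 and 465 CPM in the GNF5 libraries, against 278, 282 and 274 CPM in the DMSO libraries. The groups were narrow and far apart, with a change of 0.76 ± 0.031 (adjusted p = 3.51e-18). KCNA6 had 19.6, 23.4 and 22.7 CPM in the GNF5 libraries, against 20.5, 19.9 and 21.7 CPM in the DMSO libraries, groups that overlap, at 0.08 ± 0.064. KCNA2 (0.05 ± 0.060) and KCNA3 (0.35 ± 0.24) also overlapped between groups. Of the cytosolic beta subunits that bind KCNA channels, KCNAB3 fell (-0.78 ± 0.12) and KCNAB2 was not called (0.10 ± 0.058).

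KCNA6, KCNA1 and KCNA5 lie in that order on the plus strand of chromosome 12, with gaps of 96492 and 125622 bases between them. A further gene model of the annotation, ENSG00000256654, which GENCODE types as a processed transcript, starts 38 bases before KCNA1 on the same strand and ends 17866 bases before KCNA5. It had 44.95, 42.2 and 43.7 CPM in the GNF5 libraries, against 9.88, 10.4 and 9.77 CPM in the DMSO libraries, a change of 2.12 ± 0.055 (adjusted p = 9.16e-23). In size, its rise of 4.36-fold lay between the 1.69-fold rise of KCNA1 and the 10.98-fold rise of KCNA5. Within its span on the same strand, ENSG00000284513 rose 1.78-fold (0.84 ± 0.21). ENSG00000256654 shares 568 exon bases with KCNA1, 7.11% of the exon bases of KCNA1, and none with KCNA5. By the default of the counter, fragments that fall on both models enter neither count, and how this bears on either value was not tested. Further along, ENSG00000256417 rose (0.58 ± 0.19), while ENSG00000256218 (-0.83 ± 0.31) and NTF3 (-0.85 ± 0.089) fell, and GALNT8 on the other side was not called (0.17 ± 0.10). Beyond GALNT8 on that side, other models within 500 kilobases of KCNA5 were called in both directions.

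**Figure D4:**
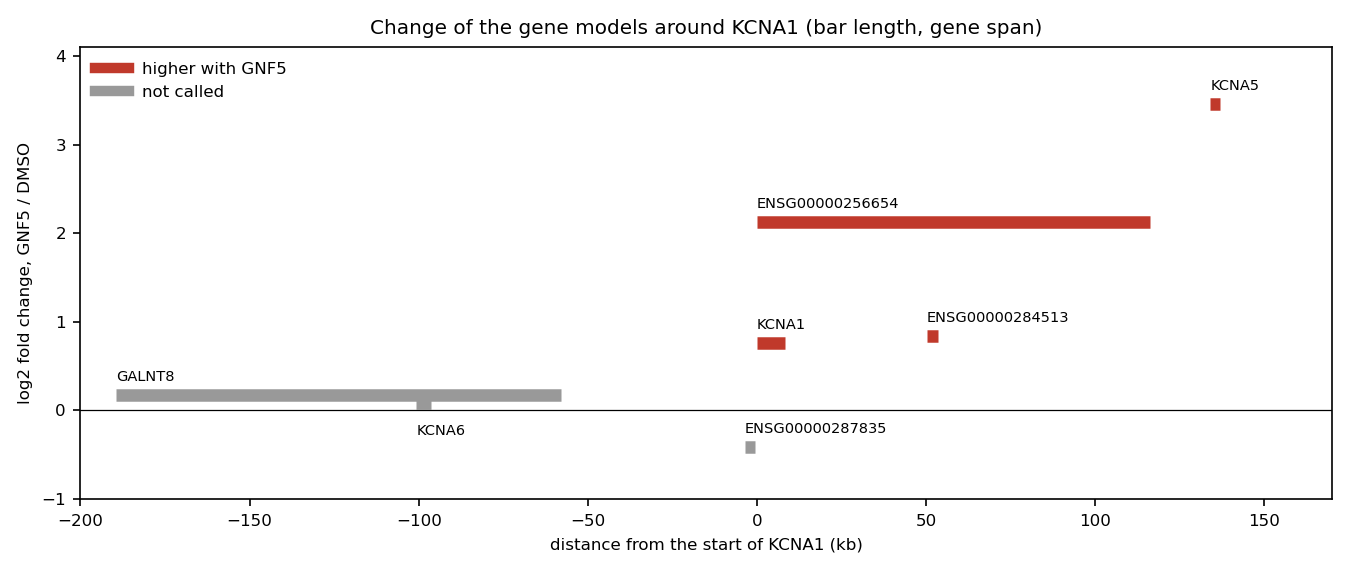
Gene models around KCNA1 drawn by distance from its start in kilobases (horizontal) at their log2 fold change, GNF5 over DMSO (vertical), with bar length as the gene's span. Of the 7 models drawn, KCNA1, ENSG00000284513, ENSG00000256654 and KCNA5 lie between 0.76 and 3.46, and GALNT8, KCNA6 and ENSG00000287835 were not called. Models farther along, not drawn, went both ways.

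The window of 250 bases before to 50 after the gene start was read from RefSeq (GRCh38.p14) for 46 of 64 members. Windows are shown 5′ to 3′ for the members with the largest rise and the largest fall that had one, KCNA5 and KCNK16, and for KCNN4 and KCNN3, a pair of calcium-activated channels that moved apart. Capitals mark a match to any of the motifs CACGTG (E-box), TGACGTCA (cAMP response element), TGATGCAA (C/EBP-ATF element), GGGCGG (SP factor box), ACGTG (core of the hypoxia response element) or TTCAGCACC (a part of the REST element), on either strand.
KCNA5 promoter, chr12:5043629-5043928 (plus strand): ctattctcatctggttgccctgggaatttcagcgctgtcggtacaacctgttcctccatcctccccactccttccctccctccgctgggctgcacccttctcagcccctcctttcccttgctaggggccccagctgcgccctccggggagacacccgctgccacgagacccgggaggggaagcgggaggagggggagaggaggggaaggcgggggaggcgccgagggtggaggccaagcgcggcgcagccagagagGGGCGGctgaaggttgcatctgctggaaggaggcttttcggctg
KCNN4 promoter, chr19:43780924-43781223 (minus strand): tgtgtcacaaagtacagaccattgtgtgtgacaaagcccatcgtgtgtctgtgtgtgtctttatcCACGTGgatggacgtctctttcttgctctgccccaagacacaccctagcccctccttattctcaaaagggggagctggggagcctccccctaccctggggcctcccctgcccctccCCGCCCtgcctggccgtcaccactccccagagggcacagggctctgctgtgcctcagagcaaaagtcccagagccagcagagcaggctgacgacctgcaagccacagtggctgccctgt
KCNN3 promoter, chr1:154870232-154870531 (minus strand): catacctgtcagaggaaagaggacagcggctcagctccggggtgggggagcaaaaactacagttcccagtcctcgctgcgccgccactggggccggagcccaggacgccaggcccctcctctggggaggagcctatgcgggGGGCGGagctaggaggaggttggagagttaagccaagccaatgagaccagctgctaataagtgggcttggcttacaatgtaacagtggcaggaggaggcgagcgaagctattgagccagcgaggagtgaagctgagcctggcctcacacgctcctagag
KCNK16 promoter, chr6:39322919-39323218 (minus strand): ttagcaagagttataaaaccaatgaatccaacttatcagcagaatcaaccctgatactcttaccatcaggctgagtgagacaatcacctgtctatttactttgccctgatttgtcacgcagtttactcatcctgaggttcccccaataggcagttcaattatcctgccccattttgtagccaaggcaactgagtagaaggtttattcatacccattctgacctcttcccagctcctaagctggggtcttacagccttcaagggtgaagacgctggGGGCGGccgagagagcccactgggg
The windows of KCNA5, KCNN3 and KCNK16 are set on the gene's 5′ end in the count files, and that of KCNN4 lies 284 bases from it, so its start is another one. GGGCGG was found in 29 of 46 member windows (63.0%), against 44.95% of all 35116 windows, and 9 of those 29 genes rose, 9 fell and 11 were not called. ACGTG, which CACGTG contains, was found in 10 of 46 (21.7%, against 21.4% of all windows), 3 of them genes that rose and 4 that fell. CACGTG itself was in 3 (KCND2, KCNH4 and KCNN4), TTCAGCACC in KCNH6 and KCNK3, and TGATGCAA in KCNT2, where 7.26%, 0.376% and 0.866% of all windows hold them. TGACGTCA was in none of the 46 and in 1.85% of all windows. Median GC content was 61.7% in the 15 windows of genes that rose, 68.3% in the 12 of genes that fell and 65.7% in the 19 of genes not called. It was 65.7% over the 46 member windows and 58.7% over all windows. A match is a string of letters and shows no binding.

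In the KCNB family, delayed rectifiers that carry much of the sustained current of neurons and endocrine cells, KCNB2 rose. It had 61.2, 62.5 and 62.8 CPM in the GNF5 libraries, against 49.9, 50.9 and 50.5 CPM in the DMSO libraries, a small difference, with narrow groups, of 0.30 ± 0.041 (adjusted p = 2.50e-07). The KCNG and KCNS genes encode electrically silent subunits that form no channel alone and join KCNB subunits, and these moved apart. KCNG1 (ENSG00000026559, chromosome 20, 51003656 to 51023107) had 17.01, 17.5 and 19.6 CPM in the GNF5 libraries, against 4.52, 5.11 and 4.82 CPM in the DMSO libraries. Every GNF5 library was above every DMSO library by more than 3-fold, and the change of 1.90 ± 0.083 (adjusted p = 1.27e-17) was second to KCNA5 among the 64. KCNS2 went the other way, with 0.919, 0.949 and 0.687 CPM in the GNF5 libraries, against 2.43, 2.05 and 2.52 CPM in the DMSO libraries, a fall, at -1.45 ± 0.19. KCNG3, the silent subunit of highest mean level per kilobase, had 9.94, 11.2 and 10.1 CPM in the GNF5 libraries, against 9.30, 8.66 and 10.3 CPM in the DMSO libraries and was not called (0.15 ± 0.083). The groups of KCNS3 overlapped as well (0.06 ± 0.13). Per kilobase, KCNG1 stood at 3.33 ± 0.252 with GNF5 and 0.889 ± 0.0548 with DMSO, and KCNG3 at 2.81 ± 0.190 with GNF5 and 2.54 ± 0.218 with DMSO. The order of these silent subunits was thus KCNG1 before KCNG3 with GNF5 and KCNG3 before KCNG1 with DMSO.

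The KCNC genes encode fast channels that allow rapid firing, and they went both ways. KCNC1 had 30.9, 30.1 and 30.2 CPM in the GNF5 libraries, against 40.9, 44.8 and 42.3 CPM in the DMSO libraries, with no overlap and a fall, at -0.49 ± 0.048 (adjusted p = 5.16e-10). KCNC2 fell by less (-0.23 ± 0.094). The call of KCNC2 was lost without GNF5 replicate 1 or 2, or without DMSO replicate 1 or 3 (adjusted p up to 0.176). KCNC4, which gives an inactivating current, rose (0.42 ± 0.065), with 20.7 ± 0.844 CPM with GNF5 and 15.5 ± 1.20 CPM with DMSO (SD, n = 3 each). KCND channels carry the transient A-type current. KCND2 had 25.1, 24.9 and 25.8 CPM in the GNF5 libraries, against 34.1, 32.0 and 32.1 CPM in the DMSO libraries, a fall, at -0.37 ± 0.050, while the low KCND1 rose (0.38 ± 0.14) and KCND3 was not called (0.27 ± 0.30). The call of KCND1 was lost without GNF5 replicate 1, DMSO replicate 1 or DMSO replicate 2 (adjusted p up to 0.0912).

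KCNIP proteins are calcium sensors that bind KCND channels and help them to the surface. KCNIP3, which is also known as a calcium-regulated repressor of transcription, led them with 17.5, 20.2 and 18.6 CPM in the GNF5 libraries, against 17.4, 16.4 and 17.6 CPM in the DMSO libraries. It was not called (0.13 ± 0.064), except without GNF5 replicate 1 (adjusted p = 0.0223). KCNIP2 had 5.62, 5.86 and 5.90 CPM in the GNF5 libraries, against 8.16, 8.15 and 8.62 CPM in the DMSO libraries and fell (-0.52 ± 0.089). KCNIP1, at 1.92 ± 0.327 CPM with GNF5 and 2.08 ± 0.282 CPM with DMSO, was not called. DPP10, another partner of KCND channels, was not called (0.13 ± 0.075).

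Several KCNQ channels give the slow M-type current that damps repeated firing. KCNQ1, which pairs with KCNE subunits in heart and epithelia, was low at 1.76 ± 0.0617 CPM with GNF5 and 1.18 ± 0.145 CPM with DMSO and rose (0.58 ± 0.18). KCNQ3, a subunit of the neuronal M current and the KCNQ gene of highest level, had 86.9, 89.6 and 88.9 CPM in the GNF5 libraries, against 80.4, 94.0 and 88.2 CPM in the DMSO libraries and was not called (0.01 ± 0.044). Its DMSO libraries spread more widely than its GNF5 libraries and enclosed them. KCNQ5 was not called either (0.06 ± 0.069). KCNE subunits are small accessory proteins of KCNQ1 and KCNH2, and the members KCNE1 and KCNE2 were both low. KCNE2 had 50, 29 and 24 counts in the GNF5 libraries, against 11, 15 and 17 counts in the DMSO libraries, groups that did not overlap, and rose (1.39 ± 0.34, adjusted p = 8.82e-04). It reached the member level only through the GNF5 libraries (mean 0.645 CPM, against 0.246 CPM with DMSO), so its call supports nothing. KCNE1 had 27, 41 and 55 counts in the GNF5 libraries, against 37, 37 and 35 counts in the DMSO libraries and was not called (0.34 ± 0.28). Without GNF5 replicate 1 it was called higher (adjusted p = 0.0472).

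The 8 KCNH genes fall into EAG, ERG and ELK types, and 3 rose and 3 fell. Both EAG genes fell. KCNH5 had 6.16, 5.93 and 5.42 CPM in the GNF5 libraries, against 8.66, 11.1 and 8.501 CPM in the DMSO libraries, with all GNF5 libraries lower, at -0.69 ± 0.10, and KCNH1, an EAG channel studied in many tumours, was low and fell (-0.89 ± 0.24). Among the ERG genes KCNH6 rose (0.33 ± 0.065), while KCNH2, with 97.1, 95.5 and 98.8 CPM in the GNF5 libraries, against 92.7, 93.3 and 95.9 CPM in the DMSO libraries, was not called (0.05 ± 0.036), nor was KCNH7 (-0.13 ± 0.071). KCNH7 was called lower without GNF5 replicate 3 or DMSO replicate 1 (lowest adjusted p = 0.0233). The ELK genes split. KCNH3 had 85.5, 100.2 and 95.8 CPM in the GNF5 libraries, against 130.4, 123 and 131 CPM in the DMSO libraries, a fall, at -0.45 ± 0.045 (adjusted p = 3.75e-09), whereas KCNH8 had 53.9, 57.6 and 55.8 CPM in the GNF5 libraries, against 35.0, 37.3 and 36 CPM in the DMSO libraries and rose (0.63 ± 0.045), as did KCNH4 (0.51 ± 0.082). In none of these 3 did the groups overlap.

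The large-conductance channel opened by calcium and voltage has its pore from KCNMA1 and its gating set by KCNMB subunits. KCNMA1 had 60.3, 60.5 and 59.1 CPM in the GNF5 libraries, against 55.4, 59.3 and 55.4 CPM in the DMSO libraries and was not called (0.08 ± 0.042), except without DMSO replicate 2 (adjusted p = 0.044). Its subunits moved apart. KCNMB2, which makes the channel inactivate, had 33.5, 27.7 and 30.01 CPM in the GNF5 libraries, against 17.5, 17.9 and 17.6 CPM in the DMSO libraries and rose (0.79 ± 0.061, adjusted p = 4.53e-12). KCNMB4, the subunit known from brain, had 4.82, 4.46 and 5.65 CPM in the GNF5 libraries, against 6.30, 7.87 and 7.06 CPM in the DMSO libraries and fell (-0.51 ± 0.11). KCNMB3 fell too (-0.38 ± 0.15), a call lost without GNF5 replicate 2 or 3, or without DMSO replicate 1 or 2 (adjusted p up to 0.143). Exon bases shared on the same strand with another gene model, ENSG00000275163, make up 32.1% of those of KCNMB2, and fragments there enter neither count. That model had 0.701 ± 0.145 CPM with GNF5 and 0.377 ± 0.212 CPM with DMSO. For KCNMB3 the share was 9.62%, with the pseudogene LRRFIP1P1. LRRC26, another auxiliary protein of this channel, fell (-0.39 ± 0.14).

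The KCNN genes encode channels of small and intermediate conductance that calcium opens through bound calmodulin. KCNN4, the intermediate one, known from blood cells and epithelia, had 1.06, 0.905 and 1.36 CPM in the GNF5 libraries, against 0.354, 0.645 and 0.625 CPM in the DMSO libraries. That is 62, 42 and 71 counts in the GNF5 libraries, against 20, 39 and 36 counts in the DMSO libraries. All GNF5 libraries were above the DMSO libraries, and it rose (1.03 ± 0.26, adjusted p = 0.00123). Its change was under 2-fold with upper-quartile factors (0.9997) and without DMSO replicate 1 (0.80). Tested against a 1.5-fold change it was not called (adjusted p = 0.0965). KCNN3 had 0.817, 0.841 and 0.725 CPM in the GNF5 libraries, against 1.45, 2.22 and 2.17 CPM in the DMSO libraries and fell (-1.29 ± 0.21, adjusted p = 3.93e-06), again without overlap. KCNN1, the most abundant of the family per kilobase, was not called (0.03 ± 0.091), nor was KCNN2 (-0.25 ± 0.23), although the groups of KCNN2 did not overlap. The calmodulin genes CALM2 and CALM3 fell, with log2 fold changes of -0.70 and -1.13. Both sodium-activated channels rose, KCNT2 with 41.6, 44.6 and 41.3 CPM in the GNF5 libraries, against 29.7, 28.5 and 28.9 CPM in the DMSO libraries at 0.55 ± 0.048, and KCNT1 at 0.47 ± 0.17. The call of KCNT1 was lost without GNF5 replicate 3 or DMSO replicate 1 (adjusted p up to 0.138).

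Of 7 inward rectifiers of the KCNJ family, 4 rose and 2 fell. KCNJ11 had 44.1, 44.4 and 46.4 CPM in the GNF5 libraries, against 42, 40.8 and 42.2 CPM in the DMSO libraries. The groups did not overlap but lay close, and the call (0.11 ± 0.044, adjusted p = 0.033) was lost without GNF5 replicate 3 or without any DMSO library left out in turn (adjusted p up to 0.146). ABCC8, the sulfonylurea receptor that joins KCNJ11 in the ATP-sensitive channel of insulin cells, rose (0.26 ± 0.059), with 25.1 ± 0.368 CPM with GNF5 and 21.0 ± 1.73 CPM with DMSO, and ABCC9 was at 0 in all libraries. KCNJ4, a strong rectifier of forebrain neurons, had 29.7, 31.6 and 33.5 CPM in the GNF5 libraries, against 20.4, 20.1 and 22.7 CPM in the DMSO libraries and rose (0.58 ± 0.057, adjusted p = 6.42e-10), and KCNJ16 rose by 0.37. The channel that G proteins open is built from KCNJ3, KCNJ5, KCNJ6 and KCNJ9. KCNJ3 rose (0.34 ± 0.070), with 15.5 ± 0.836 CPM with GNF5 and 12.2 ± 0.509 CPM with DMSO. KCNJ6 had 20.8, 23.8 and 22.0 CPM in the GNF5 libraries, against 35.1, 39.8 and 36.4 CPM in the DMSO libraries and fell (-0.74 ± 0.057, adjusted p = 3.57e-12). KCNJ9 had 12, 4 and 14 counts in the GNF5 libraries, against 34, 37 and 16 counts in the DMSO libraries, few in every library, and fell (-1.38 ± 0.41). It reached the member level only through the DMSO libraries (mean 0.497 CPM, against 0.186 CPM with GNF5), so its call supports nothing. KCNJ5 did not reach the level of a member, with 4, 8 and 5 counts in the GNF5 libraries, against 2, 1 and 0 counts in the DMSO libraries. KCNJ14 was not called (0.18 ± 0.16).

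Among 11 KCNK leak channels, 2 rose and 4 fell. KCNK3, an acid-sensitive leak channel of the TASK group and the KCNK gene of highest level, had 60.5, 62.9 and 65.6 CPM in the GNF5 libraries, against 98.3, 94.3 and 102 CPM in the DMSO libraries. Its groups were well apart, with a fall, at -0.64 ± 0.041 (adjusted p = 7.97e-14). KCNK9, the closest relative of KCNK3, was low and fell (-0.56 ± 0.24), a call lost without GNF5 replicate 1, GNF5 replicate 3 or any DMSO library left out in turn (adjusted p up to 0.196). KCNK15, placed in the same group by sequence and without a known current of its own, had 2.33, 2.05 and 2.44 CPM in the GNF5 libraries, against 0.850, 0.711 and 0.920 CPM in the DMSO libraries and rose (1.46 ± 0.19, adjusted p = 8.75e-08). On the opposite strand, KCNK15-AS1 had 1.06, 0.970 and 1.26 CPM in the GNF5 libraries, against 0.159, 0.281 and 0.226 CPM in the DMSO libraries, at 2.29 ± 0.30. KCNK15-AS1 reached a mean of 0.3 CPM only through the GNF5 libraries (mean 1.10 CPM, against 0.222 CPM with DMSO), so its call supports nothing. Counting used strand, and 22.4% of the exon bases of KCNK15 have KCNK15-AS1 or RIMS4 on the opposite strand.

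KCNK16, a leak channel that alkaline conditions open and that is known from pancreatic islets, had 0.306, 0.604 and 0.458 CPM in the GNF5 libraries, against 1.33, 1.52 and 1.72 CPM in the DMSO libraries. That is 18, 28 and 24 counts in the GNF5 libraries, against 75, 92 and 99 counts in the DMSO libraries. Every GNF5 library was below every DMSO library, and the fall, at -1.76 ± 0.25 (adjusted p = 5.03e-07), was the largest among the 64. KCNK17, which also opens in alkaline conditions, lies downstream of KCNK16 on the same minus strand. Between the end of KCNK16 and the start of KCNK17 are 236 bases. KCNK17 had 28, 30 and 26 counts in the GNF5 libraries, against 41, 37 and 43 counts in the DMSO libraries and was not called (-0.37 ± 0.28). KCNK13, a halothane-inhibited channel, fell slightly (-0.16 ± 0.058), a call lost without GNF5 replicate 1, GNF5 replicate 3 or DMSO replicate 2 (adjusted p up to 0.0677). KCNK10, a channel that stretch and lipids open, rose (0.25 ± 0.076). KCNK2, its relative, had 0.817, 1.01 and 0.802 CPM in the GNF5 libraries, against 0.779, 1.52 and 1.27 CPM in the DMSO libraries and was not called (-0.45 ± 0.24), except without DMSO replicate 1 (adjusted p = 0.0171). KCNK1, KCNK6 and KCNK12 were not called, at log2 fold changes of -0.07, -0.10 and -0.03.

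**Figure D5:**
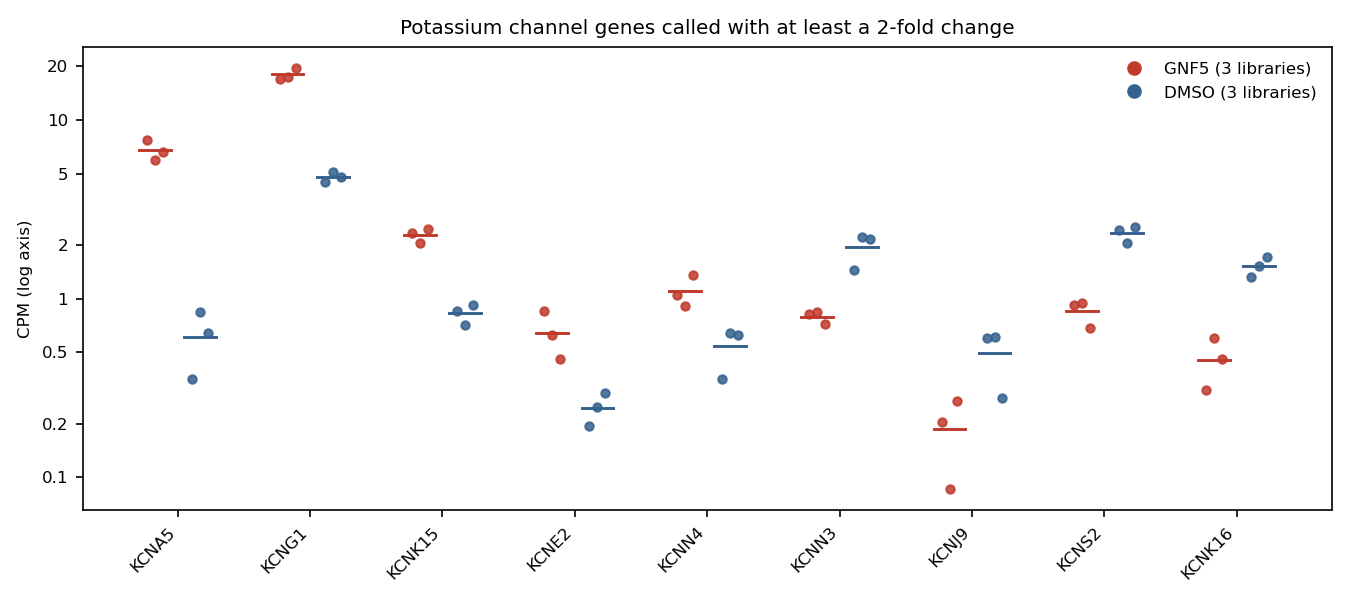
CPM per library on a log axis of 9 of the 10 potassium channel genes called with at least a 2-fold change, from the largest rise (left) to the largest fall (right), with 3 GNF5 points left of 3 DMSO points and a line at each mean. For all 9 drawn the groups do not overlap, and KCNJ9 and KCNE2 have the lowest means over the 6 libraries.

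Of the 25 members with a mean under 5 CPM, 8 were called with at least a 2-fold change (32%), and of the 39 at or above it, 2 were (5.13%), KCNG1 among them. The 8 include KCNE2 and KCNJ9, which met the member level only through the group where they were higher. Over all genes tested the shares were 20.8% under 5 CPM and 4.95% at or above it, so large calls lay mostly at low level among all genes too. The median SE was 0.23 in the lower set and 0.064 in the higher one.

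The level rule kept KCNJ9 (mean 0.341 CPM) and KCNE2 (0.445 CPM) as its lowest members and left out KCNE4 (0.285 CPM) and KCNV1 (0.283 CPM). Of the 28 symbols below the level, 6 had no count in any library, and 4 passed the filter on low counts.

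Genes that shape the membrane current alongside potassium channels went both ways too. Of 15 voltage-gated calcium channel genes tested, 3 rose and 6 fell (median log2 fold change -0.0027), and of those called with at least a 2-fold change 0 were higher and 2 lower. The 2 called calcium channel genes of lowest p were CACNA1H, a T-type channel (0.96 ± 0.038), and CACNB1 (0.76 ± 0.073), both higher. Of 10 voltage-gated sodium channel genes, 4 rose and 4 fell, 2 and 1 of them by at least 2-fold, and those of lowest p were SCN3B (1.75 ± 0.093) and SCN4A (1.54 ± 0.097), both higher. Of 16 chloride channel genes, 8 rose and 4 fell (median 0.38), with BEST1 (2.15 ± 0.078) and LRRC8D (1.31 ± 0.053) rising. Of 19 genes of the sodium-potassium pump and potassium cotransport, 6 rose and 12 fell (median -0.30). Among them SLC12A2, which brings sodium, potassium and chloride into the cell, fell (-0.57 ± 0.043), and SLC12A9 rose (0.50 ± 0.045). Of 5 HCN and CNG genes tested, 1 rose and 1 fell, HCN2 (0.15 ± 0.044) and CNGA4 (-1.22 ± 0.23). Among 11 tested partners of potassium channels outside the symbol rule, 2 rose and 5 fell (median -0.39). The shares called were 60% for calcium, 80% for sodium and 75% for chloride channel genes. They were 94.7% for pump and cotransport genes, 40% for HCN and CNG genes and 63.6% for the partners. Over all genes tested 61.6% were called, 31% higher and 30.7% lower. At least 2-fold, 4.95% were called higher and 6.69% lower.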

How the data were processed

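Libraries were made from total RNA, per the labels' protocols, and how RNA was selected was not given in these sources. Fragments were counted by the authors per gene over exons with featureCounts 1.6.1, per the file headers, reverse-stranded, on Ensembl release 101 of GRCh38. The deposited values are these raw counts, and multi-mapping and multi-overlapping pairs were left out by default. The submitters' processing notes also name HTSeq and GRCh37, which the headers do not show. Members and gene lists were chosen with earlier results of these data known.

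Symbols matched 60401 of 60671 genes. Genes were filtered with edgeR's filterByExpr (20734 kept, 39937 removed), scaled by TMM and tested with edgeR 4.0.16 by the quasi-likelihood test (R 4.3.3), GNF5 over DMSO, two-sided, with Benjamini-Hochberg adjustment over all genes kept and a threshold of 0.05. The script was tested on simulated data. The SE is the size of the log2 fold change over the square root of its F statistic. CPM used TMM-scaled library sizes, and CPM per kilobase divides by the exon length in the count files. The member level used plain totals. Replicates of a group differed beyond sampling noise (chi-square per degree of freedom 3.18 to 8.76). All 6 libraries were kept.

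Named genes were the members called with at least a 2-fold change, the 5 of highest level per kilobase and the leading gene of each class, and the 2 called genes of lowest p of each further list. Values in every library of other members are given by their role in a family, a choice made after the values were seen. Some genes that count in the totals are not reported here by name or drawn. Alternatives were RLE, upper-quartile and no scaling, DESeq2, no filter, a stricter filter, a replicate block, a test against 1.5-fold and each library left out.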

Additional observations from a re-analysis of the deposited data

How the results depend on the processing

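Of the 42 potassium channel genes called, 35 kept their call under every alternative with the same null hypothesis that tested them (other scalings, filters, DESeq2, the replicate block and each library left out). These were 13 alternatives, or 12 for KCNE2, KCNN4, KCNH1 and KCNJ9, which the stricter filter left out. Of the 42, 7 lost it under at least 1 (KCNC2, KCND1, KCNJ11, KCNK9, KCNK13, KCNMB3 and KCNT1). DESeq2 called 21 higher and 15 lower, and 5804 higher and 5930 lower over all genes. Tested against a change of 1.5-fold, 8 members were higher and 4 lower, and 1240 and 1560 of all genes. With a mean of at least 1 CPM as the level, 2 members fell at least 2-fold. KCNQ3, not called, changed sign with upper-quartile factors (log2 fold change -0.0116). With 1 library left out in turn it ran from -0.0483 (without DMSO replicate 1, also reversed) to 0.0606 (without DMSO replicate 2). The cause was not tested.

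With 1 library left out in turn, members called numbered 21 to 26 higher and 15 to 17 lower, those of at least 2-fold 4 to 6 higher and 4 to 5 lower, and all genes 5926 to 6200 higher and 5969 to 6212 lower. The replicate numbers did not pair the libraries, since deviations of same-numbered libraries correlated at -0.0157, 0.0159 and 0.00082. The replicate block gave 24 members higher and 18 lower, 6 and 4 at 2-fold, and 6279 and 6196 of all genes. Depth limits the called members KCNJ9, KCNE2, KCNK16, KCNN4, KCNH1 and KCNK9, whose libraries hold under 100 counts each.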

Other observations

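Of the 28 symbols below the level that makes a gene a member, 4 passed the filter on low counts. KCNF1, another silent subunit that joins KCNB channels, had 21, 10 and 32 counts in the GNF5 libraries, against 7, 3 and 2 counts in the DMSO libraries, and its log2 fold change was 2.49 ± 0.53 (adjusted p = 1.81e-04). KCNE4, an accessory subunit, had 27, 22 and 22 counts in the GNF5 libraries, against 5, 10 and 6 counts in the DMSO libraries, at 1.89 ± 0.41 (adjusted p = 2.53e-04). Both passed the filter only through the GNF5 libraries, where they were higher, so their calls follow in part from that filter and support nothing. KCNV1 (0.32 ± 0.42) and KCNJ12 (0.50 ± 0.41) were not called. No symbol below the level had more than 94 counts over all 6 libraries.

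Of 4 non-coding genes named after potassium channels at the same level, 1 rose, 1 fell and 2 were not called. The 1 that rose was KCNK15-AS1, which met that level only through the GNF5 libraries, as given beside KCNK15. KCNQ5-DT, a divergent transcript of KCNQ5, fell (-0.97 ± 0.27, adjusted p = 0.00242). KCNQ1OT1 (-0.15 ± 0.11) and KCNMB2-AS1 (-0.17 ± 0.31) were not called.

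Several potassium channel genes lie within 500 kilobases of each other. KCNA1 and KCNA5 on chromosome 12 both rose. On chromosome 6, KCNK16 fell and KCNK17 was not called (-0.37). On chromosome 21, KCNE1 was not called (0.34), and KCNE2 rose but met the member level only through the GNF5 libraries. On chromosome 1, KCNC4 rose, and KCNA2 (0.05) and KCNA3 (0.35) were not called. KCNJ11 (0.11) and KCNC1 (-0.49) on chromosome 11 had opposite signs, as did KCNMB2 (0.79) and KCNMB3 (-0.38) on chromosome 3, but the calls of KCNJ11 and KCNMB3 were each lost under several alternatives.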
